A study of Mus musculus with 3 samples.

Results

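A set of 10 genes at the nuclear end of the Hippo pathway was followed in a mouse small cell lung cancer line after knock-out of Kdm1a and in its vector control. They were taken by gene symbol from the deposited expression table: the coactivator genes Yap1 and Wwtr1, the DNA-binding factor genes Tead1, Tead2, Tead3 and Tead4, the kinase genes Lats1 and Lats2, and the cofactor genes Vgll3 and Vgll4. All 10 were found among the 24523 genes of the table. The Kdm1a knock-out group held 2 libraries, from line #3 cells infected with a lentiviral CRISPR vector carrying guide sg1 or guide sg2 against Kdm1a, 1 library per guide. The control vector group held 1 library, from the same line infected with Lenti-Crispr-V2, for which the labels name no guide. Puromycin selection lasted at least 1 week in every group. The labels give 1 line, do not say whether cells were cloned after infection, and give no separate cultures beyond the separate infections. Means ± SD below are therefore over the 2 guides, control values carry no SD, and p-values measure only the spread between these libraries.

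In the Hippo pathway, as background, the kinases LATS1 and LATS2 phosphorylate YAP and TAZ, which then stay in the cytoplasm or are degraded. When the kinases are inactive, YAP and TAZ enter the nucleus and bind TEAD factors, which hold the DNA contact and lack strong activation of their own. VGLL proteins bind TEADs at an overlapping surface, and VGLL4 is known to compete there with YAP. Neuroendocrine small cell lung cancer cells are known for low YAP1, and Kdm1a encodes LSD1, a histone demethylase found with CoREST corepressors.

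The promoters of the genes that passed the test below and hold the TEAD core motif are shown first, because Lats2 and other Hippo genes are known to be TEAD targets themselves. RefSeq windows of GRCm38.p6 were available for 8 of the 10 genes, each with 250 bases before and 50 bases after a start site; Tead1 and Tead4 were not covered. The letters CATTCC, the core of the TEAD site, and CACCTG, an E-box bound by SNAI and ZEB repressors, were searched on both strands, as GGAATG and CAGGTG on the other. Capitals mark the matches, which do not overlap each other, and positions are relative to the start site at 0. The first window listed is shown for each gene.
Wwtr1 promoter, chr3:57575861-57576160, minus strand: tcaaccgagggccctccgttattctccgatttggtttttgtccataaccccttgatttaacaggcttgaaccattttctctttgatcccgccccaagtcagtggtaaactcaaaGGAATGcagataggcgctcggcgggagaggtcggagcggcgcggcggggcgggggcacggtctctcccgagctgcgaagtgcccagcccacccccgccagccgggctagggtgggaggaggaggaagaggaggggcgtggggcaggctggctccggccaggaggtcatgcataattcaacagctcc
Yap1 promoter, chr9:8004547-8004846, minus strand: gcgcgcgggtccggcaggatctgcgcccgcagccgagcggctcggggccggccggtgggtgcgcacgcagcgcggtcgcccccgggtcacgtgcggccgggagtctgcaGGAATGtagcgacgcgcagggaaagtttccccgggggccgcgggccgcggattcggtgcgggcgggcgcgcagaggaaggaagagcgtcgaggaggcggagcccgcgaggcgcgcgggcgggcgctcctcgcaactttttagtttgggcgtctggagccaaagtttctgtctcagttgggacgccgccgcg
Lats2 promoter, chr14:57746074-57746373, minus strand: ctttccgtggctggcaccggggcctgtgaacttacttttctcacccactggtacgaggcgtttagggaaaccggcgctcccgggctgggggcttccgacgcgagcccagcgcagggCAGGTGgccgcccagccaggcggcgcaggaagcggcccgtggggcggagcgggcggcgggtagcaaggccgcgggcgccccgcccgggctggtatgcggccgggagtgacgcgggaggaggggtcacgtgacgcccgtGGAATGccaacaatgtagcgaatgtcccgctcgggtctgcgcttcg
Vgll3 promoter, chr16:65814939-65815238, plus strand: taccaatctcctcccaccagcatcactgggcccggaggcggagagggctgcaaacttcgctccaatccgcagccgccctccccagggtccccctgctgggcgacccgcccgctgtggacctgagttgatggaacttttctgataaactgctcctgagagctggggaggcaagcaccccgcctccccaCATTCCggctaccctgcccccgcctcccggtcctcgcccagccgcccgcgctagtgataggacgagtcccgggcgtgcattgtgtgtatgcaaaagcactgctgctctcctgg
Vgll4 promoter, chr6:114969154-114969453, minus strand: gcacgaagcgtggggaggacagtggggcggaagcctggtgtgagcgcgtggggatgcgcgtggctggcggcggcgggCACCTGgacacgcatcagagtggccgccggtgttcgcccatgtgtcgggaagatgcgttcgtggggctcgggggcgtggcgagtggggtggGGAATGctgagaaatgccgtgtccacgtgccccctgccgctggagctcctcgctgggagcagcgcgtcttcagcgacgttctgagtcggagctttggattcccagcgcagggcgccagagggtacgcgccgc
The TEAD core lay at -136 in Wwtr1, at -141 in Yap1, at 4 in Lats2, at -63 in Vgll3 and at -82 in Vgll4, and the Lats2 and Vgll4 windows also held the E-box, at -134 and -173. Tead3, which did not pass the test, held the TEAD core as well, while the windows of Tead2 and Lats1 did not hold these letters. Thus 6 of 8 genes held CATTCC in at least 1 window, against 16.6% of 27025 genes with a window, and 2 of 8 held CACCTG, against 22.6%. The printed windows are rich in CG, with 19 to 49 CG dinucleotides each against a median of 7 over all windows. The shares of genes with a match were not matched for windows per gene or for CG content, and their difference was not tested. A match is a description of these letters, not a site of binding.

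The libraries held 44667861 (sg1), 51066078 (sg2) and 43424212 (control vector) counts. Kdm1a itself, the targeted gene, had 3950 and 5716 counts with sg1 and sg2 and 11468 with the control vector. The knock-out libraries thus held 0.331 (sg1) and 0.428 (sg2) of the control level, and the difference missed the threshold of edgeR's quasi-likelihood test (adjusted p = 0.0537). The neuroendocrine label was checked on 10 markers. All of them were read in all libraries, 2 of 10 fell, against 1.70% of all genes called lower, and 8 did not pass. With both guides 9 of the 10 lay below the control and 1 lay above it. Among all 15936 genes tested, 6029 lay below the control with both guides and 6568 above it. Chga, a secretory granule protein, was 1 of the 2 that fell (6161 and 3470 counts against 13858, edgeR adjusted p = 0.0455). Insm1, a transcription factor of neuroendocrine cells, had 19145 and 14721 counts with the guides and 32795 with the control vector. It was among the 8 that did not pass (edgeR adjusted p = 0.147). Markers of fibroblasts moved with the knock-out: 5 of 8 tested rose in edgeR, against 6.33% of all genes called higher, and 3 of these 5 entered the test only through the knock-out libraries, their control level being below the filter on low counts. The 10 listed summed to 408.6 CPM (sg1), 181.2 CPM (sg2) and 7.79 CPM (control vector; CPM, counts scaled to library size). The collagen gene Col1a1 had 10119 and 2752 counts with the guides and 4 with the control vector, Pdgfrb 3754 and 2486 against 13, Pdgfra 2102 and 2468 against 69, and Col3a1 1381 and 248 against 2. Lum was at 0 in every library, Postn had 0, 2 and 1 counts and Col1a2 15, 6 and 0 counts in sg1, sg2 and control vector. Endothelial markers summed to 10.6, 24.9 and 0.530 CPM and immune markers to 10.01, 6.29 and 4.89 CPM in sg1, sg2 and control vector. Of the endothelial genes Kdr rose (433 and 1229 counts with the guides, 9 with the control vector), but it entered the test only through the knock-out libraries. Kdr held 9.59 and 24.3 CPM of the endothelial sums with sg1 and sg2. Pecam1 had 21, 1 and 7 counts and Tek 23, 16 and 7 in sg1, sg2 and control vector, and neither passed. Cdh5, with 1, 11 and 0 counts, was not tested. The macrophage gene Cd68 had 414 and 309 counts against 196 and did not pass, and the pan-leukocyte gene Ptprc had 0 and 1 against 0. Alveolar and club cell markers summed to 57.0, 23.9 and 2.95 CPM and mesothelial markers to 0.642, 0.791 and 1.94 CPM in sg1, sg2 and control vector. Of 6 alveolar and club genes, Sftpb and Sftpa1 rose, both below the filter in the control. Cyp2f2 fell, with 0 counts with both guides and 37 with the control vector, so it entered the test only through the control library. The other 3 did not pass. The shares of all genes called were 6.33% higher and 1.70% lower. The mesothelial sum of the control was mostly Lrrn4 (1.845 CPM), the only 1 of that list tested, which did not pass. The part of these markers in the results below was not tested, and in bulk RNA a change in the share of cells cannot be told apart from a change in RNA per cell.

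Whether these genes differed in the knock-out was tested with edgeR in a fit over 15936 genes. Of the 10 genes, 6 rose in the knock-out (Yap1, Wwtr1, Tead2, Tead4, Lats2 and Vgll3), 1 fell (Vgll4), and Tead1, Tead3 and Lats1 did not pass at an adjusted p under 0.05. Over all genes tested, 6.33% were called higher and 1.70% lower. Wwtr1 and Tead4 entered the test only through the knock-out libraries, since their control level lay below the filter of 0.224 CPM, so their calls add no weight to this count. Of the other 8 genes, 4 rose. The median log2 fold change was 2.60 for the 10 genes, 1.86 for the 8 genes without Wwtr1 and Tead4, and 0.06 for all genes tested.

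**Figure D1:**
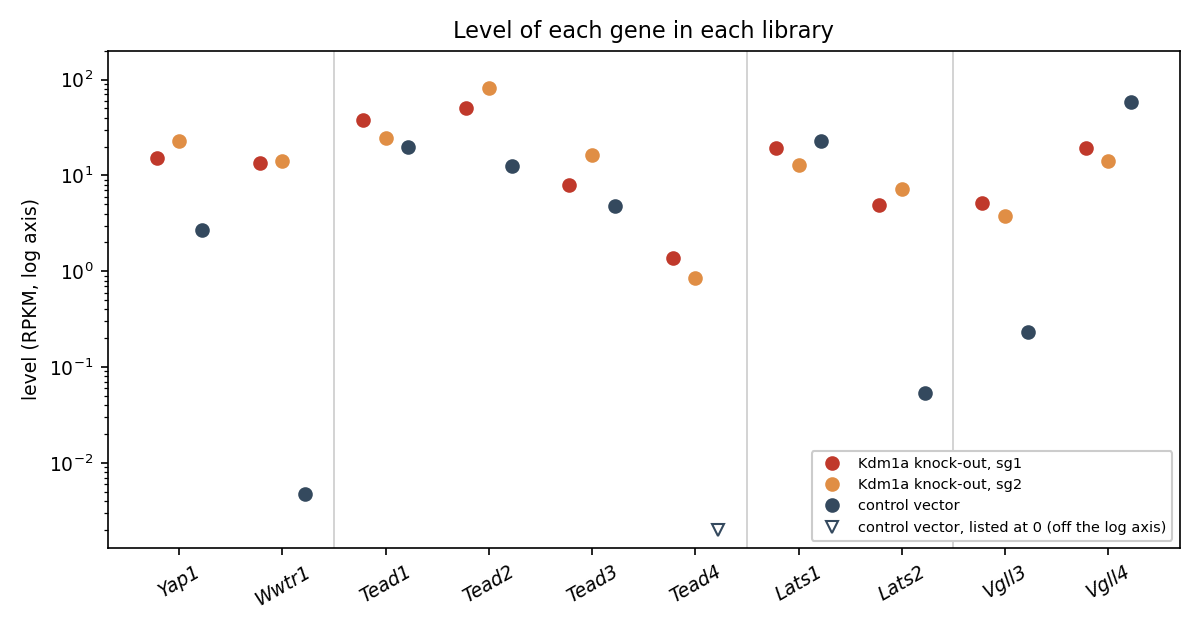
Level of each gene (RPKM, reads per unit of gene length and of library depth, log axis) in the sg1, sg2 and control vector libraries, 1 point per library; the open triangle marks Tead4, listed at 0 in the control vector. Wwtr1 lies at 13.3 and 14.2 RPKM with the guides and at 0.00477 RPKM in the control, while Vgll4 is the gene whose control point lies far above both guides.

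Both coactivator genes rose. Wwtr1, which encodes TAZ (chromosome 3, 57455644 to 57575910), had 2873 and 3509 counts with sg1 and sg2 and a single count with the control vector. The gene was thus near silent in the control library and at 66.5 ± 4.06 CPM in the knock-out (n = 2). The ratio of the pooled guides to the control was 2892, with a 95% exact counting interval of 518.9 to 114200. The adjusted p in edgeR was 2.05e-05, for a gene that entered the test only through the knock-out libraries. Yap1 (chromosome 9, 7931999 to 8004638), which encodes YAP, had 2825 and 4890 counts with sg1 and sg2 and 489 with the control vector. It was therefore already read in the control, and both guides lay above it. Its level was 79.6 ± 24.1 CPM in the knock-out and 11.3 CPM in the control, 7.06-fold higher (log2 2.82, SE 0.52; edgeR adjusted p = 0.0043). Per length, Wwtr1 made up 47.0% and 38.5% of the summed Yap1 and Wwtr1 RPKM with sg1 and sg2, and 0.178% with the control vector. The sum was 28.4 and 36.9 RPKM with the guides and 2.68 RPKM with the control vector, so the coactivator pool of the control library was almost all Yap1.

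**Figure D2:**
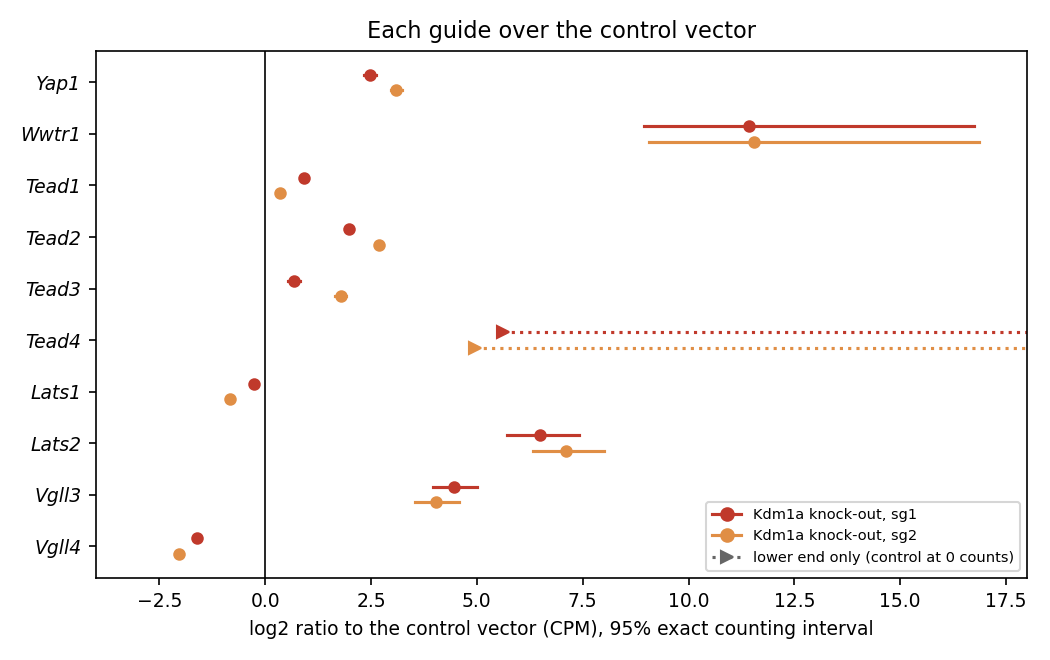
Log2 ratio of the CPM of each guide to the control vector, 1 row per gene, with 95% exact counting intervals as bars; arrows with dotted lines mark the lower ends for Tead4, whose control count was 0. Bars are wide for Wwtr1, which rests on 1 control count, and narrower than the points for Tead1, Tead2, Lats1 and Vgll4.

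Among the TEAD factors, which recognise the same DNA core, Tead2 rose, and it was the most abundant family member with both guides. Tead2 (chromosome 7, 45215792 to 45233468) had 4794 and 8843 counts with sg1 and sg2 and 1170 with the control vector. Both guides exceeded the control more than the guides differed from each other. Its level was 140.5 ± 48.5 CPM in the knock-out and 27.0 CPM in the control, 5.21-fold higher (log2 2.38, SE 0.51; edgeR adjusted p = 0.0103). Tead4 (chromosome 6, 128227143 to 128300813), known in mouse for its role in trophectoderm, had 189 and 136 counts with the guides and 0 with the control vector. A count of 0 allows up to 3 counts, 0.0692 CPM, in that library. The mean of both guides, 3.44 ± 1.06 CPM, was 49.7 times this limit, leaving aside the counting error of the guides. The call passed (edgeR adjusted p = 0.0024), but Tead4 entered the test only through the knock-out libraries. The exact counting interval of the pooled ratio had its lower end at 39.7. Tead4 was the lowest of the family, at 1.36 and 0.857 RPKM with sg1 and sg2.

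Tead1 and Tead3 lay above the control with both guides without passing the test. Tead1 (chromosome 7, 112679356 to 112906784) had 16941 and 12783 counts with sg1 and sg2 and 8615 with the control vector. The sg1 library was 1.89 times and the sg2 library 1.27 times the control (95% counting intervals 1.84 to 1.94 and 1.24 to 1.31), a spread between guides almost as wide as the difference itself (log2 0.66, SE 0.44; edgeR adjusted p = 0.508). Tead3 (chromosome 17, 28331671 to 28350805) had 1067 and 2558 counts with the guides and 637 with the control vector. The guides were unequal here too, at 1.61 and 3.44 times the control for sg1 and sg2 (log2 1.34, SE 0.56; edgeR adjusted p = 0.21).

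The makeup of the TEAD pool differed between the libraries. Tead2 took 51.7% and 65.7% of the summed Tead RPKM with sg1 and sg2, against 33.9% with the control vector. Tead1 took 38.8% and 20.2% with the guides, against 53.1% with the control vector, where it was the leading member. Tead3 took 8.10%, 13.4% and 13.0% and Tead4 1.40%, 0.695% and 0% in sg1, sg2 and control vector. The ratio of Tead2 to Tead1 RPKM was 1.33 and 3.26 with the guides and 0.640 with the control vector. The summed level was 97.3 and 123.2 RPKM with the guides and 37.2 RPKM with the control vector. These shares are descriptions of 3 libraries, and each RPKM uses 1 length per gene whatever the isoform. They also carry a trend with gene length, described below, and Tead1 is a longer gene than Tead2. With that trend removed, the log2 fold change over the control was 2.27 for Tead2 and 1.14 for Tead1, against 2.38 and 0.66 before.

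**Figure D3:**
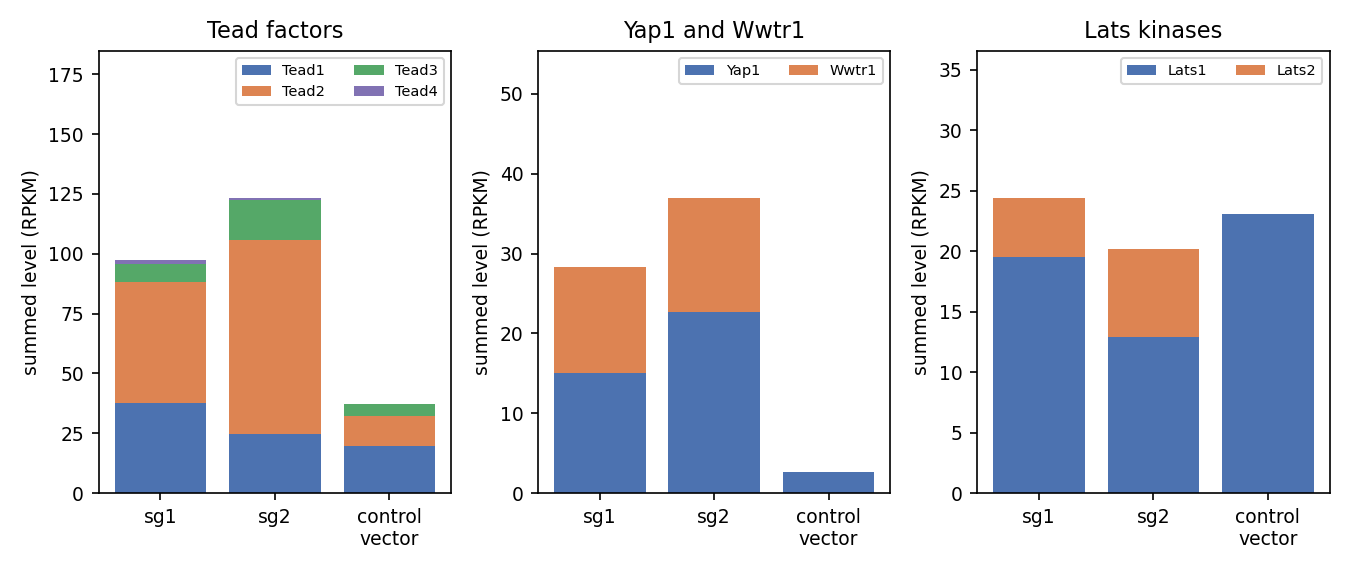
Summed RPKM of the Tead factors, of Yap1 with Wwtr1 and of the Lats kinases in the sg1, sg2 and control vector libraries, stacked by gene. Tead2 is the tallest Tead segment with both guides and Tead1 in the control; the Lats sum is 24.4, 20.2 and 23.1 RPKM in sg1, sg2 and control vector.

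Of the kinase paralogues Lats2 rose and Lats1 did not pass. Lats2 (chromosome 14, 57689662 to 57746212), itself a known target gene of YAP and TAZ, had 1216 and 2081 counts with sg1 and sg2 and 13 with the control vector. Both guides stood far above the control, at 34.0 ± 10.1 CPM against 0.2997 CPM, 113.6-fold higher (log2 6.81, SE 0.74; edgeR adjusted p = 0.000117). Lats1 (chromosome 10, 7681200 to 7716461) had 6348 and 4799 counts with sg1 and sg2 and 7283 with the control vector. It lay below the control with both guides (log2 -0.51, SE 0.43; edgeR adjusted p = 0.63). Lats2 made up 19.9% and 36.0% of the summed Lats RPKM with the guides and 0.231% with the control vector. The sum of both kinases was 24.4, 20.2 and 23.1 RPKM in sg1, sg2 and control vector. The difference between the paralogues was not tested.

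The Vgll cofactors among the 10 genes moved in opposite directions. Vgll4 (chromosome 6, 114860621 to 114970007), known as an antagonist of YAP at TEADs, had 1137 and 947 counts with sg1 and sg2 and 3324 with the control vector. It was the most abundant of the 10 genes per length in the control, at 58.7 RPKM, and reached 19.5 and 14.2 RPKM with sg1 and sg2. Its knock-out level was 21.96 ± 4.57 CPM and its control level 76.6 CPM, 3.49-fold lower in the knock-out (log2 -1.80, SE 0.43; edgeR adjusted p = 0.0198). Vgll3 (chromosome 16, 65815189 to 65866368), a TEAD cofactor of the same family, had 778 and 646 counts with the guides and 34 with the control vector. It was 19.1-fold higher in the knock-out (15 ± 3.16 CPM against 0.784 CPM; log2 4.25, SE 0.71; edgeR adjusted p = 0.00192).

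Ratios within a library do not depend on library scaling. The summed Yap1 and Wwtr1 RPKM was 0.292 and 0.2997 of the summed Tead RPKM with sg1 and sg2, and 0.0721 of it with the control vector. Relative to the Lats kinases, the coactivator sum was 1.16 and 1.83 with the guides and 0.116 with the control vector. Vgll4 was 0.201 and 0.115 of the Tead sum with the guides and 1.58 of it with the control vector. Set against the coactivators, Vgll4 stood at 0.688 and 0.384 with the guides and at 21.9 with the control vector. In each of these ratios both guides lay on the same side of the control; with 2 libraries against 1, the smallest p of a one-sided exact permutation test is 0.333.

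**Figure D4:**
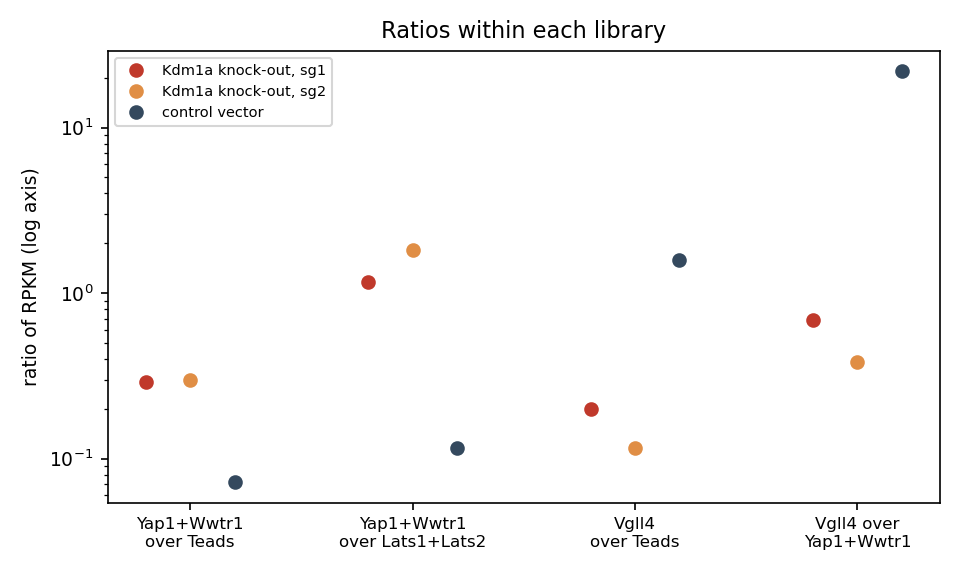
Ratios of RPKM within the sg1, sg2 and control vector libraries (log axis), 1 point per library. Both ratios with Yap1 and Wwtr1 on top are higher with the guides, and both ratios with Vgll4 on top are lower: 0.688 and 0.384 for Vgll4 over the coactivators with sg1 and sg2, against 21.9 in the control.

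The order of the levels per length also differed. In the knock-out, by the mean of both guides, it was Tead2 (65.7 ± 21.7 RPKM), Tead1 (31.3 ± 9.10), Yap1 (18.9 ± 5.44), Vgll4 (16.9 ± 3.76), Lats1 (16.2 ± 4.69), Wwtr1 (13.8 ± 0.627), Tead3 (12.2 ± 6.09), Lats2 (6.06 ± 1.70), Vgll3 (4.47 ± 1.01) and Tead4 (1.11 ± 0.358). The guides' ranges overlapped between each pair of neighbours from Yap1 down to Tead3, and between Lats2 and Vgll3, so these neighbours did not differ beyond their spread. In the control vector it was Vgll4 (58.7 RPKM), Lats1 (23.0), Tead1 (19.7), Tead2 (12.6), Tead3 (4.84), Yap1 (2.68), Vgll3 (0.233), Lats2 (0.0534) and Wwtr1 (0.00477), with Tead4 at 0. The 95% counting intervals of neighbours did not overlap from Vgll4 down to Wwtr1 in the control.

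The guides were compared with each other in the same genes, with no test, since each was sequenced once. The ratio of sg1 to sg2 had a 95% counting interval above 1 for 5 genes and below 1 for 5. The ratio was 1.49 for Tead1, 1.48 for Lats1, 1.56 for Tead4, 1.349 for Vgll3 and 1.345 for Vgll4. It was 0.917 for Wwtr1, 0.655 for Lats2, 0.647 for Yap1, 0.607 for Tead2 and 0.467 for Tead3. Gene length moved with the guides: the median log2 ratio of sg1 to sg2 was -0.33 in the shortest 20% of the genes tested and 0.37 in the longest 20%. Tead1, Lats1, Lats2 and Wwtr1 are among the longest and Vgll4 is among the shortest. The ratios of Tead1 and Lats1 lay on the side of this trend, those of Lats2, Wwtr1 and Vgll4 on the other side. With that trend removed, the log2 fold change over the control was 1.14 for Tead1 (edgeR adjusted p = 0.109) and -0.16 for Lats1 (edgeR adjusted p = 0.829). It was 7.12 for Lats2, 11.5 for Wwtr1 and -1.97 for Vgll4.

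**Figure D5:**
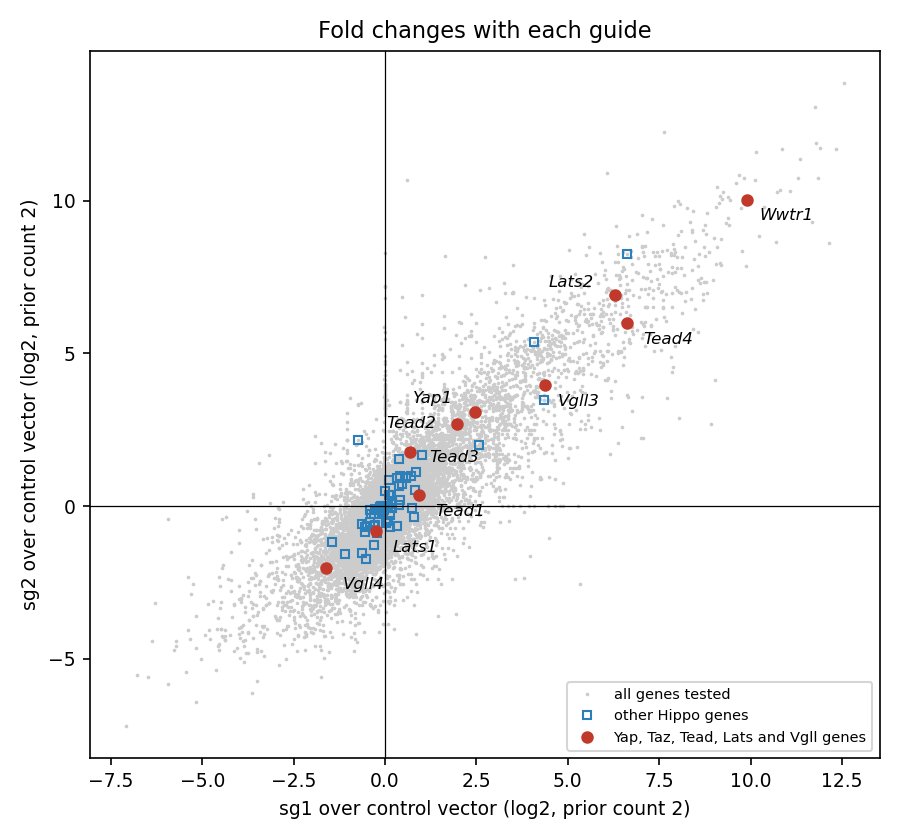
Log2 fold change over the control vector with sg1 (horizontal axis) and sg2 (vertical axis), with a prior count of 2; grey points are all 15936 genes tested, squares the other Hippo genes and filled circles the 10 genes described. Wwtr1, Lats2, Tead4 and Vgll3 lie far up the diagonal, most squares lie near the origin, and both axes share the control library.

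The other genes of the pathway were then examined, from a list of 59 regulators found in the table, of which 58 could be tested. Of these, 4 rose, which is 6.90% and close to the 6.33% of all genes, and 54 did not pass; Ajuba, 1 of the 4, entered the test only through the knock-out libraries. All 4 come from the 28 upstream and core genes of the list, of which they are 14.3%, and the difference between the groups of the list was not tested. Ajuba, a LIM protein that restrains LATS, had 800 and 2820 counts with sg1 and sg2 and 6 with the control vector. Wwc2, a relative of the scaffold KIBRA, had 1355 and 3728 counts with the guides and 75 with the control vector. The giant cadherin Fat4 had 1704 and 1050 counts with the guides and 79 with the control vector, and Amotl1, an angiomotin that binds YAP, 9361 and 7126 against 1525. Their edgeR adjusted p-values were 0.000261, 0.000786, 0.00177 and 0.00985. Genes called lower numbered 0 in edgeR, where 1 had an unadjusted p under 0.05, and also 0 with limma-voom, with both limma-trend settings and with DESeq2.

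The core kinase cassette above LATS did not pass the test. Stk4, which encodes the kinase MST1, had 6647 and 6201 counts with sg1 and sg2 and 5622 with the control vector (log2 0.06, SE 0.42). Its paralogue Stk3, encoding MST2, had 2276 and 2364 counts with the guides and 1921 with the control vector (log2 0.13, SE 0.43). The scaffold gene Sav1 had 2608 and 2910 against 2213 counts (log2 0.18, SE 0.43), and Nf2, encoding merlin, 8056 and 9870 against 10075 (log2 -0.31, SE 0.40). The LATS activators Mob1a and Mob1b had log2 fold changes of -0.08 (SE 0.50) and -1.01 (SE 0.50). The edgeR adjusted p-values of these 6 genes lay between 0.324 and 0.974, which does not show that their levels were equal. None of 10 junction and polarity genes and 12 STRIPAK phosphatase genes passed edgeR's test. Nor did any of 8 genes of degradation, related kinases and a further Vgll cofactor.

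Known target genes of YAP and TAZ, other than Lats2, were read for comparison: 9 of 18 rose, Ajuba above among them, and the other 9 did not pass, against the 6.33% of all genes called higher. With both guides 17 of the 18 lay above the control, as did 6568 of all 15936 genes tested. The remaining 1 of the 18 lay below it, with an unadjusted edgeR p under 0.05. Of the 9 that rose, 6 lay below the filter in the control and entered the test only through the knock-out libraries, Axl, Ankrd1 and Ctgf among them. These 6 add no weight to the count that rose or to the count above the control. Axl, a receptor tyrosine kinase, had 7382 and 7392 counts with sg1 and sg2, Ankrd1 1103 and 2105, and Ctgf 525 and 2070, and all were at 0 counts with the control vector.

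The genes whose fold changes with both guides were nearest to those of Yap1 and Wwtr1 were sought among 10020 genes with a mean of at least 10 CPM. Distance was measured in the plane of the sg1 and sg2 log2 fold changes, which rest on 3 libraries. For Yap1 they included Gstm1, a glutathione transferase with close paralogues (distance 0.0634), and Hbegf, a growth factor of the EGF family (0.081). For Wwtr1 they were Itga5, a fibronectin receptor subunit (distance 0.31; 1669, 1905 and 0 counts in sg1, sg2 and control vector), the retinoic acid receptor gene Rarg (0.469) and Lgals1, encoding galectin-1 (0.518). With 0 or 1 control count the Wwtr1 distances depend on the prior count.

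In the authors' deposited table of genes up with both guides, 6 of the 10 genes are listed, Yap1, Wwtr1, Tead2, Tead3, Lats2 and Vgll3, and Vgll4 is in the authors' deposited table of genes down. The up list holds 7.47% and the down list 8.78% of the genes in the table. Tead1, Tead4 and Lats1 are in neither list, and Tead3 and Tead4 are where these lists and edgeR's calls part. The authors' lists are labelled as made with an RPKM cutoff, while edgeR's calls use an adjusted p under 0.05, so the thresholds are unlike.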

How the data were processed

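Per the labels, RNA of 3 libraries was sequenced with paired-end reads. Raw read counts for 24523 genes were deposited in 1 table with, per the file headers, RPKM for the same libraries. Bowtie2 2.2.3, TopHat2 2.0.12, HTSeq 0.6.1 and mm10 are named in the submitters' processing notes; the sources used here do not give their settings or the strand. Reads of overlapping or antisense genes (Pcmt1 at Lats1; predicted genes at Wwtr1, Lats2 and Vgll4) therefore cannot be told apart.

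Counts were tested with edgeR 4.0.16 (R 4.3.3): TMM factors, filterByExpr on the group, quasi-likelihood F test, Benjamini-Hochberg adjustment over the 15936 genes kept. Residual spread is that of the guides (1 degree of freedom, moderated with 11.5 prior degrees); the single control library is taken to vary as they do. The SE is the log2 fold change over the square root of F. Folds are ratios of mean CPM. The 95% intervals are exact, and they and the 3-count limit cover counting error only. Scripts were tested on simulated counts. Promoter sequences and positions are RefSeq's, GRCm38.p6, the assembly of mm10, matched by symbol and Entrez identifier.

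The members, the gene lists and the tests were chosen with earlier results of these data known, so the lists received no test of their own. Named were Kdm1a, the 10 genes, every other Hippo gene that passed, the core kinase cassette, the 3 targets with the largest fitted fold changes, and the 3 genes nearest to Yap1 and to Wwtr1. A gene that this rule takes is not reported here. The 59 other Hippo genes and the targets were matched by symbol. Alternatives were DESeq2 1.42.0 size factors, upper-quartile factors, library totals, no filter, a minimum mean count of 50, DESeq2 with its Wald test, and limma-voom and limma-trend (limma 3.58.1) on log2(RPKM + 1) and log2(RPKM + 0.1), a loess correction for gene length (the length implied by counts over RPKM, span 0.5) and each guide left out.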

Additional observations from a re-analysis of the deposited data

How the results depend on the processing

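Of the 7 calls among the 10 genes, 6 higher and 1 lower, all held under 9 of 10 alternatives with a test. With limma-trend on log2(RPKM + 1) the counts were 0 and 0, with adjusted p-values from 0.061 for Wwtr1 to 0.135 for Tead4; that setting called 27 higher and 4 lower genes in the whole table. It called 0 of the other Hippo genes, against 4. Tead1, Tead3 and Lats1 passed under none of the 10 alternatives (lowest adjusted p 0.109, 0.105 and 0.602), and no direction among the 10 genes reversed. Over all genes, the 1008 higher calls became 606 with limma-trend on log2(RPKM + 0.1), 613 with the length correction and 513 with limma-voom. The 271 lower calls became 178 with library totals, 511 without a filter, 180 with a mean count of at least 50, 73 with limma-trend on log2(RPKM + 0.1) and 109 with the length correction. The cause of these differences was not tested. Fat4 lost its call under 2 alternatives, and Kdm1a gained one under 3. Leaving out a guide leaves 1 library against 1, so that counts of calls were not run without a guide; the log2 fold changes were then 3.10 and 2.47 for Yap1 and -2.03 and -1.60 for Vgll4 without sg1 and without sg2. No paired analysis was possible because the control vector had 1 library. With 1 control library, values at 0 to 13 control counts (Tead4, Wwtr1, Lats2) have wide counting intervals.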
